A study of Mus musculus with 2 samples.

Results

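EP300 sites buried in the interiors of long genes were examined in the lung of newborn mice. These deep intragenic sites were the peaks of the optimal reproducible set on chromosomes 1 to 19 whose summit lay over 100 kb from every protein-coding transcription start site (TSS) and inside the body of a protein-coding gene. There were 2621 of them among 43296 optimal peaks on these chromosomes, or 6.05% (95% Wilson interval 5.83 to 6.28%, which covers the counting of peaks only), out of 43988 optimal peaks in all. ChIP-seq, which sequences the DNA recovered with an antibody, here against EP300, had been done on lung tissue of strain B6NCrl at postnatal day 0, in 2 libraries that form 1 group, with no treatment or altered allele named and sex not collected. The libraries are numbered as biological replicates 1 and 2 but carry the same donor and biosample identifiers, so their spread may be only technical.

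EP300 (p300) does not read DNA sequence itself. Transcription factors bring this coactivator to enhancers, where it acetylates histones, and its peaks are widely used to find active enhancers in tissue. Enhancers often lie in introns, and an enhancer in an intron can act on the host gene, on a neighbour across a long distance, or on both, which a map of positions does not show. In whole tissue, fewer cells of a type and less EP300 per cell cannot be told apart. As a check of the tissue, all 6 lung epithelial, 5 endothelial and 4 mesenchymal marker genes examined had an optimal peak whose nearest TSS was theirs within 100 kb, against 2 of 11 markers of liver, heart, brain and blood (Tnnt2 and Neurod1). The same share over all protein-coding genes was not computed, so how far these counts depart from it is unknown. The design holds no comparison of conditions, and peaks are not replicates, so values are given with those of each library and without a test. For each library alone, its strongest 43988 peaks were taken, as many as in the optimal set.

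The windows below show the 100 bases around the summit of the strongest deep peak in the leading host gene Rad51b and in Macrod2, and around the strongest deep peaks of all, in Zbtb16, Vps13d, Bcas3 and Babam2. They are plus-strand mm10 sequence, with capitals where a searched consensus sequence matched on either strand.
Rad51b, chr12:79683936-79684035: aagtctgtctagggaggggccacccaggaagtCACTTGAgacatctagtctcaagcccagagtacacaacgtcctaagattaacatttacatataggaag
Macrod2, chr2:141299322-141299421: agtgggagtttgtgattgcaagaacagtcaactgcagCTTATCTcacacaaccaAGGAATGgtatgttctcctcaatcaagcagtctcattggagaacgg
Zbtb16, chr9:48723669-48723768: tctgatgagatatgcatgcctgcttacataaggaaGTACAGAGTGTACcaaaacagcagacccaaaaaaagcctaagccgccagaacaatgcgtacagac
Vps13d, chr4:145024840-145024939: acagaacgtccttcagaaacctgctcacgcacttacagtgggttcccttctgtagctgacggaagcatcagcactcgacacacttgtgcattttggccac
Bcas3, chr11:85492372-85492471: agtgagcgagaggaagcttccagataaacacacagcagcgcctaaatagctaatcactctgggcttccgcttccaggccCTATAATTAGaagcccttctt
Babam2, chr5:31905973-31906072: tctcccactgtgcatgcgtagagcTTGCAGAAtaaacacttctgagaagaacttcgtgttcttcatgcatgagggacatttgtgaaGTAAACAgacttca
The capitals mark an NKX2 match in Rad51b, a GATA and then a TEAD match in Macrod2, a glucocorticoid response element in Zbtb16, a MEF2 match in Bcas3, and a CEBP and then a FOX match in Babam2. No searched sequence matched in the Vps13d window.

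Taken as a whole, deep intragenic sequence carried fewer EP300 peaks per Mb than gene interiors nearer to a start site and more than gene deserts. A desert is intergenic sequence over 100 kb from every TSS. Deserts and deep intragenic sequence differ in their mix of distances. Over 300 kb from a TSS lay 404.8 Mb of intergenic and 53.9 Mb of intragenic sequence, so values at matched distances are given below. The density was 11.85 peaks per Mb over 221.1 Mb of deep intragenic sequence. Each library alone gave 11.85 (replicate 1) and 12.05 (replicate 2), a mean of 11.95 ± 0.141 (SD, n = 2). Intragenic sequence 10 to 100 kb from a TSS had 22.9 peaks per Mb (22.8 and 22.7 in the libraries), and gene deserts had 6.53 (6.44 and 6.62). These lengths count assembly gaps. A 1 kb grid without gaps had 746387 positions in 807.2 Mb of desert and 220907 in 221.1 Mb of deep intragenic sequence. The desert density is therefore a low estimate. All differences in density between these classes were larger than the spread between the libraries. The deep sites thus made up 6.05% of peaks on 8.98% of the sequence, with assembly gaps counted as sequence.

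Within gene bodies the density fell with distance from the TSS. It was 23.8 peaks per Mb at 10 to 20 kb, 23.5 at 20 to 50 kb and 21.5 at 50 to 100 kb. Beyond the 100 kb limit it was 17.2 at 100 to 150 kb, 13.7 at 150 to 200 kb, 8.89 at 200 to 300 kb and 5.59 over 300 kb. The libraries gave 17.25 and 17.75 in the first of these deep intervals and 5.48 and 5.65 in the last, so that the libraries did not overlap between any of the 4 deep intervals. Most deep sites were nonetheless not far beyond the limit: their median distance to a TSS was 151.7 kb, with 27.9% over 200 kb, 11.5% over 300 kb and the farthest at 980.7 kb, in Macrod2. There was no step at the limit itself, with 338 deep peaks at 100 to 110 kb (median signal value 46.04, 17.9 per Mb) and 424 intragenic peaks at 90 to 100 kb (46.01, 19.5 per Mb). Intergenic sequence had 15.5 peaks per Mb at 100 to 110 kb and 13.7 at 110 to 150 kb, where intragenic sequence had 17.0. It had 11.8 at 150 to 200 kb, 8.92 at 200 to 300 kb and 3.31 over 300 kb. Between 200 and 300 kb the intragenic and intergenic values therefore did not differ beyond the libraries' spread (8.89 and 8.83 against 8.70 and 9.13).

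**Figure D1:**
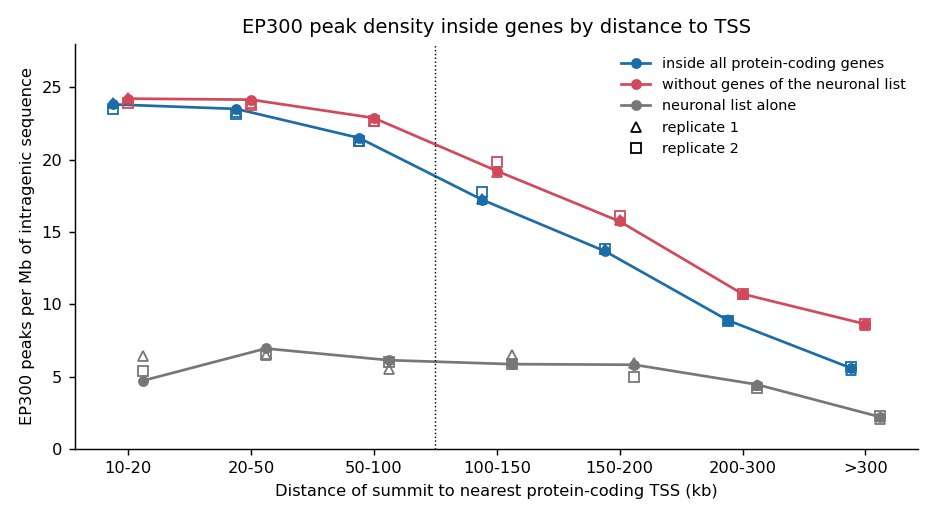
EP300 peaks per Mb of intragenic sequence (y) by distance of the summit to the nearest protein-coding TSS (x, kb). Filled circles with lines are the optimal set, open triangles and squares the strongest 43988 peaks of replicates 1 and 2, and the dotted line marks 100 kb. The density inside all genes falls from 23.8 to 5.59 peaks per Mb, while genes of the neuronal list stay between 2.20 and 6.94.

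The fall with distance was accompanied by a change in the genes that supply the sequence. Genes on a list of neuronal adhesion and synapse genes gave 25.4 of 53.9 Mb of intragenic sequence over 300 kb from a TSS, but 2.97 of 143.6 Mb at 10 to 20 kb. Without them the density was 19.2 peaks per Mb at 100 to 150 kb, 15.7 at 150 to 200 kb, 10.7 at 200 to 300 kb and 8.62 over 300 kb. The neuronal genes alone had 5.86 peaks per Mb at 100 to 150 kb and 2.20 over 300 kb.

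The deep peaks were close to other distal peaks in median strength and in reproducibility, with fewer among the very strongest. Signal values are the authors' measure of peak height and serve here only to rank and describe peaks. Their median was 47.9 for deep sites (quartiles 35.2 and 73.6, range 10.35 to 628.4), 48.95 for intragenic peaks at 10 to 100 kb, 49.8 for gene deserts and 48.6 for all optimal peaks. Of the deep sites, 244 (9.31%) were among the strongest 10% of the optimal set, against 10.1% of all optimal peaks on these chromosomes. The share was 10.7% for intragenic peaks at 10 to 100 kb, 11.1% for gene desert peaks and 8.04% for peaks within 10 kb of a TSS. The strongest 500 held 22 of 2621 deep sites, against 498 of all 43296 peaks on these chromosomes. They held 161 of 12213 nearer intragenic peaks, 55 of 5268 desert peaks and 106 of 13707 peaks within 10 kb of a TSS. A summit within 100 bp was present in both libraries' full lists of 300000 peaks for 2312 sites (88.2%, against 85.9% of all optimal peaks). Among the strongest 43988 peaks of both libraries it was present for 1715 sites (65.4%, against 63.0%). The log2 ratio of the signal in replicate 1 to that in replicate 2 had a median of 0.38 over 2312 deep sites and 0.40 over 37183 optimal peaks with a partner in both lists. Of these deep sites 90.3% were within 2-fold of the median ratio over all peaks, against 89.3% of the 37183 optimal peaks.

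Most deep sites were intronic and lay in unique sequence. Only 42 (1.60%) had the summit in an exon of a protein-coding gene, the strongest in Hdac4 (signal value 200.9), Camk2d (129.9) and Tnr (124.5), which were named after their values were seen. On a 1 kb grid 1.67% of deep intragenic positions were exonic. The summit lay in soft-masked repeat sequence at 215 sites (8.20%, against 9.88% of all optimal peaks), while 28.1% of grid positions in deep intragenic sequence were repeats. A noncoding RNA start site was within 1 kb of 50 sites (1.91%, against 5.24% of all optimal peaks and 1.25% of grid positions). The median GC content of the central 100 bp was 44% at deep sites and in gene deserts, 46% at intragenic sites 10 to 100 kb from a TSS and 47% over all peaks. Deep sites were also more spread out: the median distance to the nearest other optimal peak was 6.06 kb, against 3.66 kb for intragenic sites at 10 to 100 kb and 6.48 kb in gene deserts. No other peak lay within 50 kb of 338 deep sites (12.9%), against 5.72% of the nearer intragenic sites.

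A small number of host genes held many of the deep sites. Of 1253 protein-coding genes with any sequence over 100 kb from a TSS, 651 (52.0%) held at least 1 deep peak, and 583 of these did so in both libraries taken alone as well. There were 229 hosts with a single deep peak, 188 with 5 or more and 71 with 10 or more. Those 71 together held 1034 deep sites (39.5%), but they were picked by their counts, and their share of the deep sequence was not computed. The 602 genes without one had less deep sequence, a median of 48.4 kb against 143.6 kb in hosts. Only 19 sites lay in more than 1 host.

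Rad51b, a gene of homologous recombination repair, led with 53 deep peaks in 417.1 kb of deep sequence (chromosome 12, 79297282 to 79814690). The libraries alone gave 54 and 55, the conservative set 50, and the optimal set with close summits merged 45. Its deep peaks ran from 23.2% to 99.0% of the gene's length, with signal values from 10.99 to 263, and the longest run, with no gap over 12.5 kb, held 15 peaks in 57.8 kb. The strongest lay 386.4 kb from a TSS and had signal values of 141.1 in replicate 1 and 122.2 in replicate 2. For 43 of these peaks the nearest TSS was that of Rad51b and for 10 that of Zfp36l1, an mRNA decay factor gene beyond its 3′ end.

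Lrmda followed with 30 deep peaks (30 and 35 in the libraries), Macrod2, an ADP-ribose hydrolase gene, with 28 (25 and 27), 2010111I01Rik with 25 (25 and 24) and Wwox, an oxidoreductase gene with WW domains, with 24 (21 and 23). Bcas3, which encodes a cytoskeletal regulator of cell migration, had 23 (20 and 24), Nckap5 21 (17 and 20) and Itpr1, an inositol trisphosphate receptor calcium channel gene, 20 (22 in each). Rbms3, which encodes an RNA-binding protein, had 18 (17 and 20). Rad51b stood clear of every other gene in both libraries, and Lrmda of Macrod2, whereas the library counts of Macrod2 and 2010111I01Rik, and those of Wwox and Bcas3, overlapped. Gm20388, with 32, is an annotated gene model of 4435 kb that spans many other genes. None of its 32 peaks had a Gm20388 start as the nearest TSS, and the libraries alone gave 28 and 21. The nearest TSSs there were those of Irf8, an interferon regulatory factor gene (6 peaks), Gse1, Banp, Foxl1 and Fam92b (5 each), Foxf1, a forkhead factor gene of lung mesenchyme and vessels (4), and 1700018B08Rik (2). Without this gene model 2599 deep sites remained.

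The other hosts among the leading 20 each had 16 or 17 deep peaks. With 17 were Adamtsl1 (20 and 18 in the libraries), an ADAMTS-like matrix protein gene, Nfia (19 and 19), a nuclear factor I gene, Sox5 (15 and 15), an SRY-box factor gene, and Ldlrad4 (18 and 12), an inhibitor of TGF-beta signalling. With 16 were, among others, the homeobox gene Cux1 (14 and 17), the sialyltransferase gene St6galnac3 (19 and 20), the translation factor gene Ctif (17 and 16), the synapsin gene Syn3 (13 and 13) and the insulin-like growth factor receptor gene Igf1r (16 and 13). Per Mb of deep sequence, Syn3 was at 204.7, Igf1r at 143.6, Cux1 at 132.7, Rad51b at 127.1 and Ctif at 125.4, and Macrod2, with 1697 kb of deep sequence, at 16.5.

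**Figure D2:**
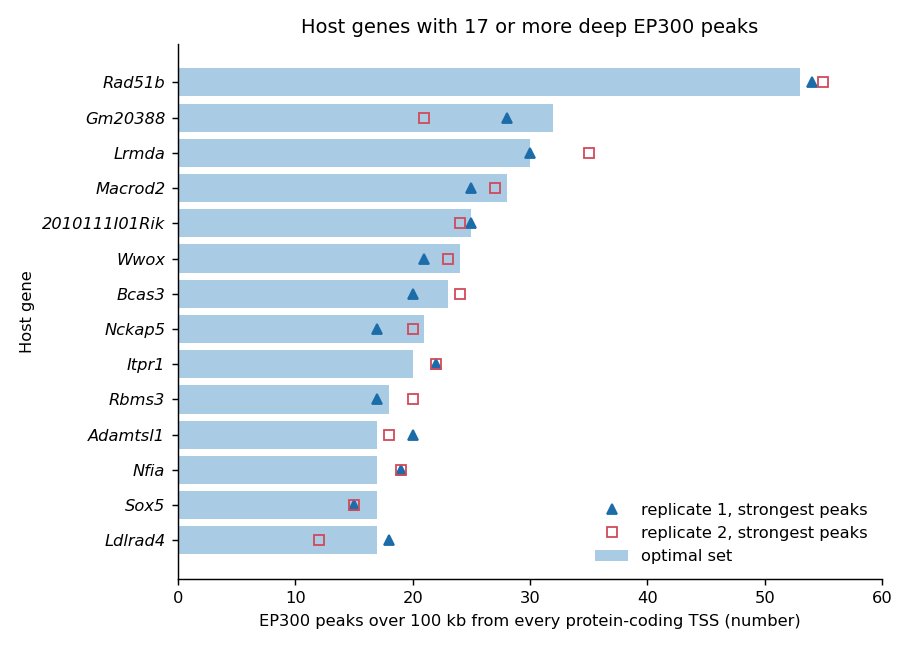
Number of EP300 peaks over 100 kb from every protein-coding TSS (x) in the 14 host genes with 17 or more (y). Bars are the optimal set, triangles and squares the strongest 43988 peaks of replicates 1 and 2. Rad51b stands at 53 to 55 in all of them, and the other hosts lie between 12 and 35.

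These host counts rest on which start sites are used. With the TSSs of all annotated transcripts of protein-coding genes in place of basic protein-coding transcripts, 1174 sites in 318 hosts remained beyond 100 kb. Rad51b then kept 52 deep peaks, Gm20388 25, Lrmda 20, Macrod2 20, Wwox 18 and Zbtb16 all 11. By contrast Itpr1, Bcas3, 2010111I01Rik, Igf1r and Cux1 kept none. Among the other leading hosts and the hosts described further on, Nckap5 kept 14, Rbms3 13, Sox5 and Ctif 10, Adamtsl1 and Ptprg 8, Nfia and Ldlrad4 7, Babam2 6, Syn3 5, St6galnac3 2 and Nav2 1, and Vps13d, Mctp2, Vps8, Tns3, Ankrd44, Adam12 and Tenm4 kept none. Of the 2621 sites, 53 (2.02%) lay within 1 kb of such a TSS.

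For 940 deep sites (35.9%) the nearest TSS belonged to a gene other than the host. There were 310 such genes, some of them lying within the host, and those named here were named after their values were seen. All 16 deep peaks of Syn3 had another gene's TSS nearest. For 8 it was that of Timp3, an inhibitor of matrix metalloproteases whose start lies within Syn3, and for 8 that of Fbxo7. In Itpr1 15 of 20 deep peaks were nearest to Bhlhe40, a basic helix-loop-helix repressor gene of clock and stress responses. In Ctif 10 of 16 were nearest to Smad7, a feedback inhibitor of TGF-beta signalling. In Bcas3 10 of 23 were nearest to Tbx2, a T-box factor gene of lung mesenchyme, and in Wwox 7 of 24 to the leucine zipper factor gene Maf. In Macrod2 24 of 28 were nearest to Flrt3, whose start lies within Macrod2. In Vps13d 10 of 12 were nearest to Dhrs3, a retinal reductase gene. Sites nearest to another gene had a median signal value of 47.1 and sites nearest to their host 48.6. The nearest TSS is not a measured link. The same share over all deep intragenic positions was not computed. These counts therefore do not show whether the peaks differ from other positions in the same genes.

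**Figure D3:**
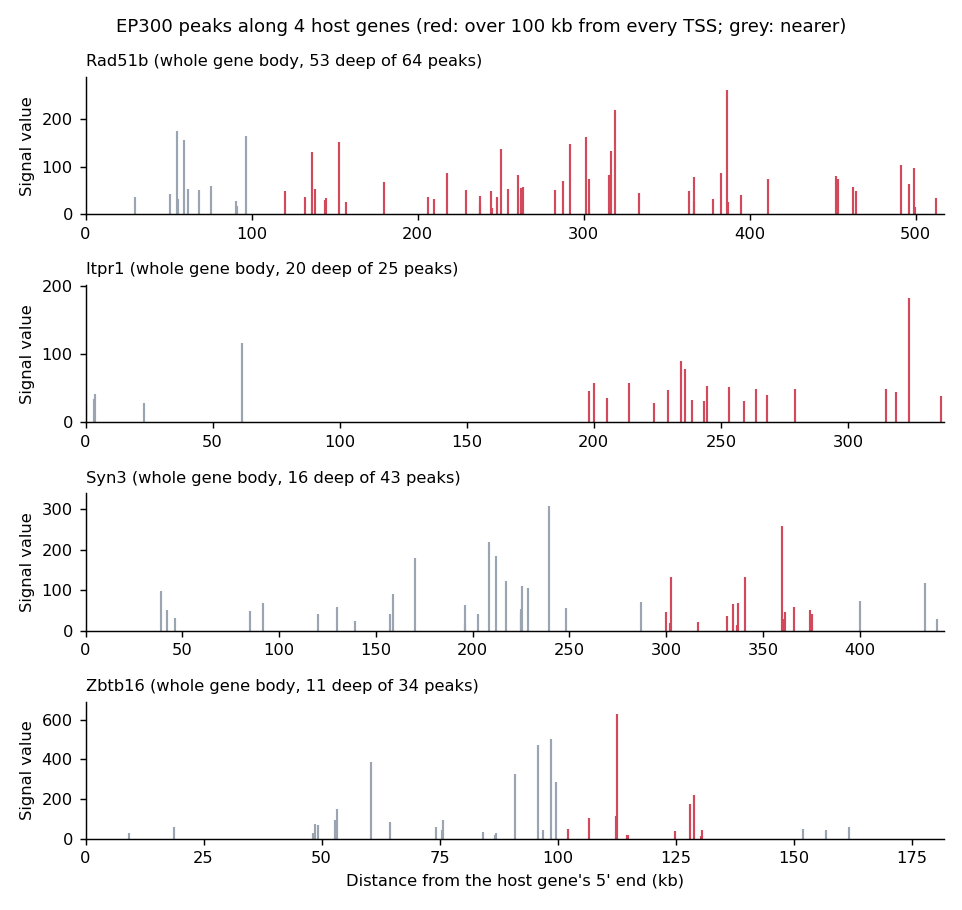
Signal value (y) of every optimal EP300 peak along 4 host genes, by distance from the gene's 5′ end (x, kb); red lines are over 100 kb from every protein-coding TSS and grey lines nearer. Deep peaks make up 53 of 64 in Rad51b, 20 of 25 in Itpr1, where they lie in the part towards the 3′ end, 16 of 43 in Syn3 and 11 of 34 in Zbtb16.

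The strongest deep peak was also the strongest EP300 peak of the optimal set. It lay in Zbtb16, which encodes the zinc finger factor PLZF and is a known glucocorticoid target, at chromosome 9, 48723454 to 48724019, with a signal value of 628.4. Its signal was 306.4 in replicate 1 and 324.0 in replicate 2, rank 1 in each. Zbtb16 had only 30.8 kb of deep sequence but 11 deep peaks, with 9 and 8 in the libraries. All 11 lay in 1 run of 28.7 kb, which nearly fills the 30.8 kb, so its length is set largely by the distance limit. Peaks of the same gene nearer to a TSS continued beyond it, among them 2 with signal values of 471.4 and 500.8. The count fell to 8 with close summits merged and to 7 in the conservative set. Of the 11 deep peaks, 5 had Nnmt as the nearest gene. The other 10 were weaker, with signal values from 13.6 to 219.4, and 1 of them (115.9) is a further summit within the interval of the strongest. The second deep peak (480.4, Vps13d, a lipid transfer protein gene) had signal values of 239.0 and 244.6 in the libraries, and the third (411.7, Bcas3) 228.7 and 185.3. Babam2, a gene of a deubiquitinase and DNA repair complex, held the fourth (382.8, with 196.3 and 184.5), 208 kb from a TSS. The fifth was in Adgrv1, an adhesion receptor gene (380.2, with 212.3 and 168.8). Its nearest TSS was that of Arrdc3, 221.6 kb away. Further peaks of the strongest 10 lay in Nckap5 (323.2), Auts2 (319.9), Mctp2 (317.7) and Vps8 (305.2). Their ranks ran from 112 to 294 in the first library and from 197 to 284 in the other. Vps8 had no other deep peak in the optimal set, with 1 in replicate 1 and 3 in replicate 2, while Auts2 had 10, Adgrv1 13 and Mctp2 6.

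By role, lists of transcription factor, cell shape and receptor genes had more deep peaks per Mb than all genes with deep sequence together, and neuronal genes fewer. The 5 lists were chosen with earlier results of these data known, so they serve as a description. Of 57 transcription factor and cofactor genes with deep sequence, 42 (73.7%) held a deep peak, against 52.0% of all such genes. Together they had 23.8 deep peaks per Mb (23.6 and 24.4 in the libraries), against 11.9 over all genes with deep sequence (11.9 and 12.1). The value over all genes includes the neuronal list, which holds 59.6 of 221.9 Mb at 3.96 per Mb and so lowers it. Outside that list, intragenic density ran from 19.2 per Mb at 100 to 150 kb from a TSS to 8.62 over 300 kb. The 5 lists were not matched for distance from a TSS. Whether distance contributes to their differences was not tested. Nfia and Sox5 had 17 each and Cux1 16. Of 45 actin, adhesion and cell shape genes, 30 (66.7%) were hosts, with 20.5 per Mb (21.7 and 21.2). They were led by Bcas3 with 23, Tns3, which encodes the focal adhesion protein tensin 3, with 15 (18 and 15 in the libraries), and the ankyrin repeat gene Ankrd44 with 14 (14 and 11). With the TSSs of all transcripts the cell shape list fell to 10.3 per Mb and the transcription factor list to 19.7, against 8.85 over all deep intragenic sequence.

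Receptors, kinases and phosphodiesterases had 41 hosts of 54 (75.9%) and 16.9 deep peaks per Mb (16.9 and 17.8). Itpr1 led with 20, followed by Igf1r with 16 and the receptor phosphatase gene Ptprg with 13 (10 and 13). With the TSSs of all transcripts this list was at 11.9 per Mb and Itpr1 and Igf1r had none. Matrix, integrin and basement membrane genes had 24 hosts of 36 (66.7%, against 52.0% of all genes with deep sequence). Their summed density of 11.8 per Mb (12.6 and 12.7) was close to the 11.9 over all genes, a value that the neuronal list lowers. Their median gene was at 11.5 per Mb, against 2.41. Adamtsl1 had 17, and the extracellular immunoglobulin-domain gene Hmcn1 (11 in each library) and the metalloprotease gene Adam12 (8 and 9) had 10 each.

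Neuronal adhesion and synapse genes are among the longest of the genome, and 111 of them had 59.6 Mb of deep sequence, a median of 451.9 kb per gene against 94.8 kb over all genes with deep sequence. They held 236 deep peaks, or 3.96 per Mb (4.02 and 3.81), and 61 (55.0%) were hosts. Ptprn2, a secretory granule phosphatase gene, had 15 (13 and 17), the axon growth gene Nav2 13 (16 and 13) and the teneurin gene Tenm4 12 (16 and 15). The 5 genes with most deep sequence and no deep peak were Cntnap2, with 1984 kb, Lsamp, with 1897 kb, Csmd1, with 1543 kb, Gpc5, with 1333 kb, and Pcdh15, with 1225 kb. Each had 0 in both libraries as well. Except for the glypican gene Gpc5, these stand in the neuronal list, and encode adhesion or complement-domain proteins of the nervous system or sense organs. Of 106 genes with over 500 kb of deep sequence, 33 held no deep peak, a smaller share than the 602 of all 1253 genes with deep sequence. Among genes with at least 50 kb of deep sequence, 47 of 108 on the neuronal list (43.5%) and 296 of all 834 (35.5%) held none, against 8 of 46 transcription factor genes and 3 of 29 cell shape genes.

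**Figure D4:**
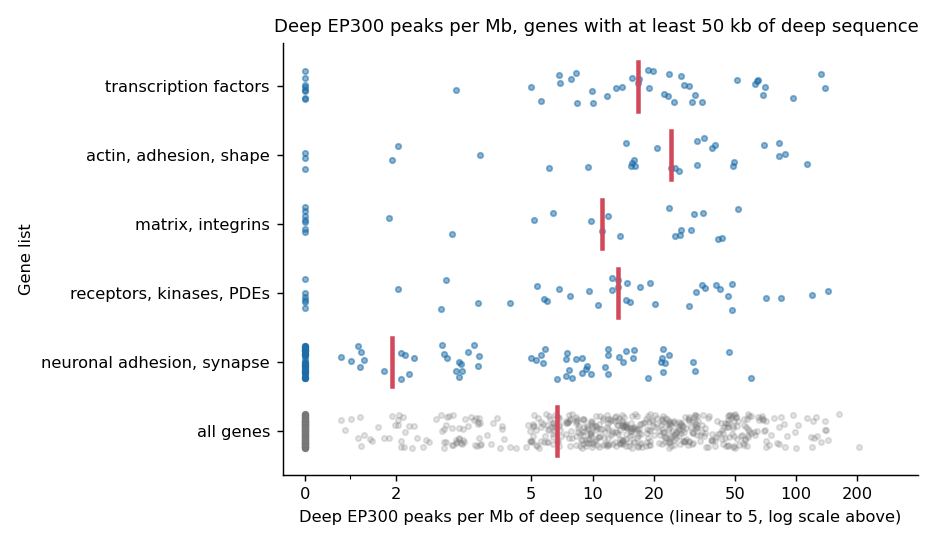
Deep EP300 peaks per Mb of deep sequence (x, linear to 5 and logarithmic above) for each gene with at least 50 kb of deep sequence, by list (y); each point is 1 gene and red bars are medians. Medians are 16.8 for transcription factors, 24.2 for cell shape, 11.1 for matrix, 13.3 for receptors and kinases and 1.93 for neuronal genes, against 6.71 over all 834 genes.

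The glucocorticoid response element, the palindrome bound by the glucocorticoid receptor, was searched as GNACA and TGTNC, 3 bases apart, in the central 100 bp of each peak. It was present at 68 deep sites, or 2.59% (95% Wilson interval 2.05 to 3.28%), against 2.17% of all optimal peaks and 2.64% of intragenic peaks at 10 to 100 kb. Windows of the same length 500 bp to either side of deep sites held it in 0.153% of cases (8 of 5242). In each library alone 2.44% and 2.40% of deep centres had a match. The 68 sites lay in 63 hosts or sets of hosts. None of Rad51b's 53 deep peaks had a match, but 53 peaks are too few to tell this from the 2.59% over all deep sites. Deep sites with a match had a median signal value of 80.8, those without 47.6. The share was 6.87% (18 of 262) in the strongest 10% of deep sites and 1.91% (5 of 262) in the weakest 10%. Over all optimal peaks these shares were 6.58% and 0.624%. Among the 10 strongest deep peaks, 3 had a match, in Zbtb16, Auts2 and Mctp2.

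Elements from among the strongest deep peaks with a match, chosen after their signal was known, show how the same palindrome recurs in unrelated introns. Capitals mark the matched element on the plus strand.
Zbtb16, chr9:48723700-48723720: ggaaGTACAGAGTGTACcaaa
Auts2, chr5:132337872-132337892: ctggGTACAGAATGTTCcagg
Mctp2, chr7:72162473-72162493: ggggGGACACTTTGTTCtttg
Slc7a11, chr3:50321054-50321074: actgGAACACTGTGTACcaaa
Carmil1, chr13:24113281-24113301: accgGAACAAGCTGTACcttc
Man2a1, chr17:64721246-64721266: ggttGTACAAACTGTTCcctg
Slc10a7, chr8:78635063-78635083: gagaGTACAGATTGTCCcagc
These elements lay within 35 bp of the summits, but only the central 100 bp were searched, so closeness was set by the search. The summit in Mctp2 lay in soft-masked repeat sequence, as did those of 5 of the 68 sites in all. Slc7a11, a cystine transporter gene, held its element in a peak with a signal value of 231.3 (140.5 and 89.9 in the libraries), 122.5 kb from its own TSS. The peak in Carmil1, a regulator of actin capping, had 81.5 in replicate 1 and 123.4 in replicate 2.

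The sequences of lung and vessel factors were mostly found at deep summits at shares close to those of all peaks, with FOX and NKX2 sites somewhat more frequent in centres and flanks alike than over all peaks. TEAD sites (CATTCCA or CATTCCT), bound by the partners of YAP, were in 10.3% of deep centres and 4.01% of flanks, against 9.17% of all optimal centres. CEBP sites (TTGCNNAA) were in 9.50% and 4.46% of flanks, against 8.70% of all centres, and E-boxes (CAGCTG) in 8.85% and 4.25%, against 8.04%. The FOX site (TGTTTAC) was in 6.56% of deep centres (95% Wilson interval 5.68 to 7.58%), against 5.31% of all optimal centres, and the NKX2 site (CACTTGA or CACTCAA) in 6.68% (5.78 to 7.70%), against 5.14%. Deep flanks also held these more often, FOX in 1.83% against 1.42% of flanks over all peaks, and NKX2 in 3.32% against 2.56%. The ratios of centres to flanks were 3.58 at deep sites and 3.76 over all peaks for FOX, and 2.01 in both for NKX2. In the libraries alone FOX was at 6.49% and 6.12%, and NKX2 at 6.98% and 6.23%. Gene deserts were close to deep sites for FOX, with 6.25% of centres and 1.71% of flanks, and had NKX2 in 5.81% and 2.61%.

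AP-1 sites (TGACTCA or TGAGTCA) were in 5.38% of deep centres, against 5.94% of all, with ratios to flanks of 2.79 and 3.40. The direction differed between libraries, with 5.80% of deep centres against 6.24% of all in replicate 1 and 5.93% against 5.62% in replicate 2. ETS sites (ACAGGAAG or ACCGGAAG) were in 4.66%, against 4.60%, with ratios of 4.60 and 4.34. GATA sites (AGATAAG) were in 3.36%, against 3.23%, and STAT sites (TTCCNGGAA) in 1.45%, against 1.54%. SOX sites (ACAATGG or ACAAAGG) were in 4.77%, against 4.91%, and TCF/LEF sites (CTTTGAT or CTTTGAA) in 5.38%, against 4.48%, with 4.24% in deep flanks. The TCF/LEF difference was present in replicate 1 (5.15% against 4.35%) and not in replicate 2 (4.65% against 4.66%). Some were about as frequent in deep flanks as in deep centres. RUNX sites (TGTGGTT) were in 2.75% of centres and 2.40% of flanks, against 2.32% of all optimal centres, and MEF2 sites (CTA and TAG, 4 bases apart) in 1.41% and 1.51%, against 1.52%. SRF sites were in 0.534% and 0.515%, against 0.508%, and the libraries alone gave 0.305% and 0.450% of deep centres. The insulator protein CTCF had its consensus in 6 deep centres (0.229%, against 0.460% of all) and the CRE (TGACGTCA) was in 7 (0.267%, against 0.409%). The NFI palindrome (TTGGC and GCCAA, 5 bases apart) was in 0 of 2621 deep centres, which allows a share of up to 0.114% (3 counts of 2621), against 0.0416% of all optimal peaks. At least 1 of the 18 sequences was present in 55.4% of deep centres and 52.0% of all centres.

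**Figure D5:**
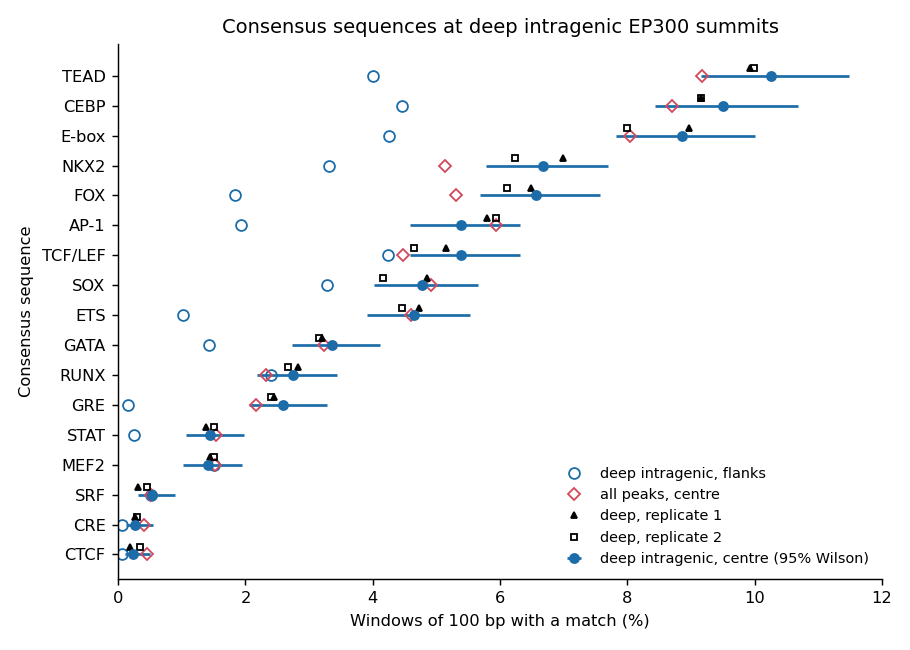
Percent of 100 bp windows with a match (x) for each consensus sequence (y): filled circles are deep intragenic centres with 95% Wilson intervals, open circles their flanks 500 bp away, diamonds all optimal centres, triangles and squares deep centres of replicates 1 and 2. The glucocorticoid response element (GRE) is at 2.59% of deep centres and 0.153% of flanks, and diamonds lie below the interval for NKX2, FOX and TCF/LEF, the last of which shows no difference in replicate 2.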

How the data were processed

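EP300 ChIP-seq of postnatal day 0 mouse lung was deposited as mm10 peak lists, per the file headers of the read-me notes. Per the same notes the authors made 1 list per library and 1 from both (300000 peaks in each), then an optimal (43988) and a conservative (42473) set by irreproducible discovery rate. An additional file that those notes do not describe went into each list. Which aligner and peak caller made them is not given in the sources used here. Signal values were used as the authors deposited them, and no scaling is stated. No read counts were given, so depth and the precision it allows are unknown, and intervals cover the counting of peaks only.

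Summits were compared with basic protein-coding TSSs and gene bodies of GENCODE M21 on chromosomes 1 to 19 (20807 genes), which left out 692 optimal peaks on other sequences. Deep sequence is the part of a gene body over 100 kb from every such TSS. A peak within several hosts counted for each. Lengths by distance came from a 1 kb grid without assembly gaps, while lengths of whole classes and of genes counted them. The 18 consensus sequences were matched on both strands in GRCm38 sequence, the build of mm10, and overlapping matches of different sequences were all kept. A match does not show binding, and a missing match says only that these letters are absent from the window.

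Members, lists and tests were chosen with earlier results of these data known. Genes were named by rule: the 20 hosts with most deep peaks, the hosts of the 10 strongest, 3 per list, and the 5 with most deep sequence and no deep peak. A gene that the rule names is not reported here. Nearest genes other than hosts, exonic sites and element sites beyond this rule were named after their values were seen. No test was made, since 2 libraries of 1 group allow none. Code was tested on simulated data. Alternatives covered peak sets, libraries, distances, TSS sets, merging, windows and flanks. Leaving out Gm20388, or the neuronal list, was an alternative chosen after seeing the data. Software was Python 3.11.15 with matplotlib 3.10.9, scipy 1.17.1, pandas 2.3.3 and numpy 2.4.6.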

Additional observations from a re-analysis of the deposited data

How the results depend on the processing

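The number of deep sites (2621), of hosts (651) and the density were most sensitive to the definition of a TSS and of distance. With the TSSs of all transcripts there were 1174 sites (2.71% of peaks, 8.85 per Mb) in 318 hosts, over 50 kb 6019 (13.9%, 15.9 per Mb) in 1435, and over 150 kb 1332 (3.08%, 9.11 per Mb) in 355. In the stronger 50% of peaks there were 1290 (5.94%, 5.83 per Mb), with a median signal value of 74.2. The conservative set gave 6.18% and 11.7 per Mb, and merging summits within 250 bp 6.13% and 11.0 per Mb. Leaving out each library in turn gave 2621 to 2665 sites, 6.05 to 6.15%, 11.85 to 12.05 per Mb, 649 to 652 hosts and a median signal value of 21.4 to 27.9, which is on each library's own scale.

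The neuronal list had 1.98 deep peaks per Mb with the stronger 50% of peaks, 4.35 over 50 kb, 3.53 over 150 kb, 3.08 with all TSSs, 3.76 with merged summits, and 3.81 to 4.02 with a library left out. It was the lowest of the 5 lists under every setting run. The share found in both libraries was 55.0% with summits within 50 bp, 70.1% within 200 bp and 74.4% with any overlap, 69.7% for the conservative set, 95.04% for the stronger 50%, 63.4% over 150 kb and 69.5% after merging. The glucocorticoid response element was in 2.79% of centres of the conservative set, 3.57% of the stronger 50%, 2.84% over 50 kb, 2.33% over 150 kb, 2.90% with all TSSs, 2.75% after merging, 3.09% of 200 bp windows and 2.40 to 2.44% with a library left out. Of 360 values for 40 named genes, 278 were within 1.5 times the reported count. No paired analysis was possible because the libraries form 1 group.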

Other observations

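Deep EP300 sites were unevenly spread over chromosomes, from 7.51 per Mb of deep intragenic sequence on chromosome 16 and 8.54 on chromosome 10 to 16.98 on chromosome 18 and 17.9 on chromosome 13. Runs of deep peaks with no gap over 12.5 kb were found in genes outside the leading hosts. Mthfd1l, a mitochondrial folate enzyme gene, had 9 peaks in 36.7 kb, the small GTPase gene Arl15 9 in 33.4 kb, the formin gene Fmnl2 9 in 41.3 kb, the cation channel gene Trpm3 9 in 34.5 kb and the guanine nucleotide exchange factor gene Akap13 8 in 21.3 kb. Rspo2, a secreted WNT amplifier of lung mesenchyme, had 7 in 23.6 kb. These genes were named after their values were seen. The longest run by number was in Itpr1, with 16 peaks in 81.2 kb.

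The wider list of 300000 pooled peaks, which includes weak ones, had 24522 in deep intragenic sequence, and 12.2% of these overlapped an optimal peak, against 16.7% of all pooled peaks on chromosomes 1 to 19. In the neuronal list there were 70.9 pooled peaks per Mb of deep sequence and 5.58 optimal peaks for every 100 pooled ones, against 111.1 per Mb and 10.7 over all genes with deep sequence. The conservative and optimal sets were not nested: 2142 deep sites were identical in both, 81.7% of those in the optimal and 83.0% of those in the conservative set.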
